A study of Rattus norvegicus with 78 samples.

Results

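The genes Nrip3, Dhx36, Tsc22d4, Pkp4, Adpgk and Endod1 each had at least 1 probeset on the array that differed strongly between Flinders Sensitive Line (FSL) and Flinders Resistant Line (FRL) rats. All probesets that the array annotation gives to these 6 genes were taken, which were 16 of 31042 probesets, against 14217 genes with a symbol in all. A further probeset names Tsc22d4 beside another gene and was not used. The genes were selected on the FSL to FRL difference of their probesets in these same arrays, so each probeset's own difference is given as a description, and so is the count of probesets past a threshold on it. Whether the probesets of a gene agreed in this difference was part of the choice too. The grouping of the genes by agreement and their ranks by it are therefore descriptions as well. The variation of this difference between cohorts and regions was tested, but on values that the choice had used. In 4 of the genes (Nrip3, Dhx36, Tsc22d4 and Pkp4, 12 probesets) probesets of the same gene differed most in how far they changed. In the other 2 (Adpgk and Endod1, 4 probesets) both probesets changed in the same direction. The amounts were nearly the same in Adpgk and less alike in Endod1. The description of a gene with a single strongly changed probeset therefore held for Dhx36, Tsc22d4 and Pkp4, but not for Adpgk and Endod1, where both probesets changed, nor for Nrip3, where 2 of 3 did.

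FSL and FRL rats are lines bred from Sprague-Dawley rats for high or low sensitivity to an inhibitor of acetylcholinesterase, and FSL rats are used as a model of depression. RNA was taken from the prefrontal/frontal cortex (P/FC, the whole frontal lobe) and the hippocampus (HIP) of the right hemisphere of adult male rats, a week after a forced swim test that the rats of both lines went through. Cohort 2 had 8 FSL and 10 FRL rats and cohort 1 had 9 FSL and 12 FRL rats, with 1 array per rat and region, which makes 39 arrays per region and 78 in all. Reagents differed between the cohorts, so that cohort and reagents cannot be told apart, and each region was processed separately. The labels do not say which arrays of the regions come from the same rat, and all arrays were treated as independent.

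An expression array measures a gene through probesets, each of them a group of short oligonucleotides that bind a stretch of its transcripts. Probesets of 1 gene can lie on different exons or on different ends of the transcript, so they need not report the same transcript forms, and each binds with its own strength. An intensity is therefore compared between arrays for the same probeset, and not between probesets as an amount of RNA. The study could not exclude that sequence polymorphisms account for some of its differences between the lines, and this was not tested here. In tissue, fewer cells of a type and less RNA per cell cannot be told apart. The 6 genes share no pathway. Dhx36 is a helicase that unwinds G-quadruplex structures in RNA and DNA. Tsc22d4 belongs to the TSC22 family of leucine zipper transcription regulators. Pkp4 is an armadillo repeat protein of cell junctions, related to the delta catenins. Adpgk is a glucokinase that uses ADP in place of ATP. Endod1 carries an endonuclease domain, and Nrip3 is a little studied gene named for an interaction with nuclear receptors.

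The array medians lay between 60.8 and 66.0 in P/FC and between 56.8 and 63.0 in HIP. A probeset was kept in a region when its intensity exceeded 30 in no fewer than 50% of the arrays, in FSL and in FRL alike. This kept 15 of the 16 probesets in P/FC and 16 of 16 in HIP. The 4 kept hippocampal markers were all higher in HIP, and 1 of the 2 kept markers of frontal cortex was higher in P/FC. Summed striatal markers ranged from 999 to 4690 over FSL arrays and from 869 to 4569 over FRL arrays of P/FC, and 1 of the 5 was higher in FSL there, with a median change of 0.58 on the log2 scale over the 5. All 4 astrocyte markers were lower in FSL in both regions, with sums of 4170 to 5467 in FSL and 4240 to 7309 in FRL in P/FC, and of 5893 to 7086 in FSL and 6474 to 8070 in FRL in HIP. Of the 3 microglia markers 2 were lower in FSL in P/FC (median change of -0.28, with sums of 1528 to 1947 in FSL and 1627 to 2765 in FRL), while in HIP 1 was higher and 1 lower. Summed choroid plexus markers varied most between arrays, from 163.8 to 13621.5 in FSL and from 126.8 to 10703.8 in FRL in HIP. Summed markers of the meninges ranged from 110 to 1082 in FSL and from 125 to 1177 in FRL in P/FC. The part of these markers in the results for the 6 genes was not tested.

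Nrip3 had the widest gap between its probesets. The probeset 1391985_at was far lower in FSL than in FRL. In HIP its lowest, median and highest intensities were 24.0, 36.1 and 60.0 in the FSL rats of cohort 2, against 127, 249 and 351 in the FRL rats of cohort 2. In cohort 1 they were 20.6, 44.3 and 70.3 in FSL rats, against 79.2, 282 and 464 in FRL rats. The lines did not overlap in HIP in either cohort, and over both cohorts the intensity was 6.16-fold lower in FSL (log2 change of -2.62 ± 0.17, SE). In P/FC the same probeset read 10.5, 20.8 and 23.2 in FSL and 46.8, 66.4 and 98.5 in FRL in cohort 2. In cohort 1 it read 16.4, 20.1 and 30.1 in FSL and 22.9, 91.0 and 161 in FRL. The FSL arrays of P/FC were thus nearly all under 30, the probeset was not kept there, and its change of -1.89 in P/FC is given without an error.

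The probeset 1396173_at of Nrip3 was also lower in FSL, by less. In HIP it had a median of 127 in FSL and 222 in FRL in cohort 2, and of 137 in FSL and 251 in FRL in cohort 1. The lines overlapped in both regions and cohorts. Its change over both cohorts was -0.72 ± 0.10 in HIP and -0.37 ± 0.12 in P/FC (SE). The brightest Nrip3 probeset, 1383530_at, had medians in HIP of 1198 in FSL and 1277 in FRL in cohort 2, and of 1620 in FSL and 1706 in FRL in cohort 1. Its change was -0.05 ± 0.05 in HIP and 0.10 ± 0.06 in P/FC, with the lines overlapping throughout.

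**Figure D1:**
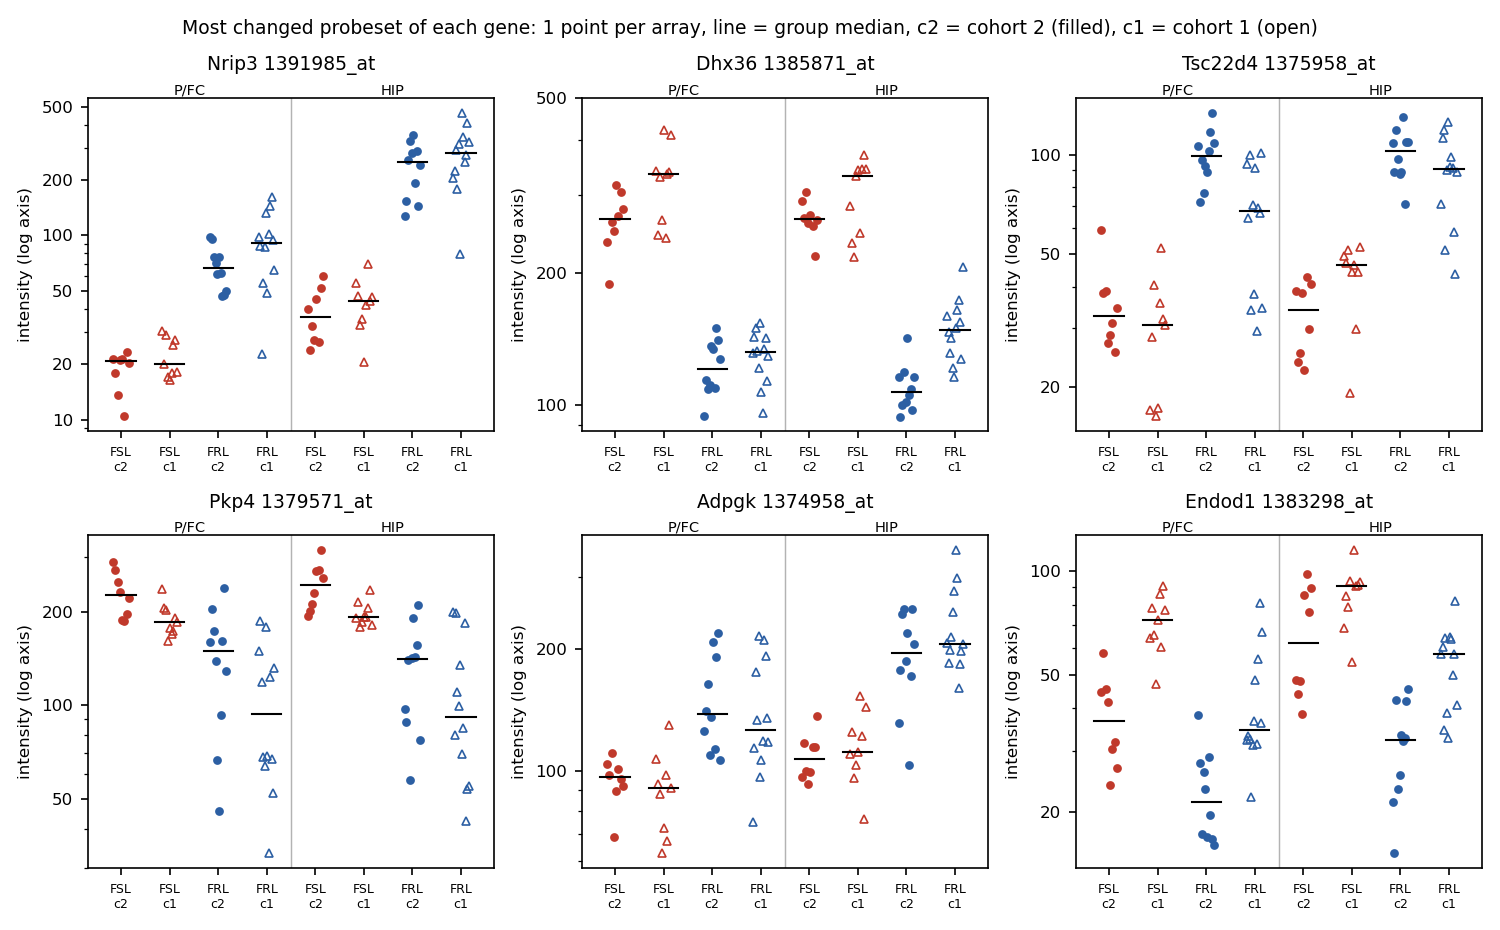
Intensity (log axis) of the most changed probeset of each gene, 1 point per array, by region, line and cohort, with a line at the median of each group. The lines do not overlap in any region and cohort for Dhx36 1385871_at, and the FRL arrays of Pkp4 1379571_at spread over a wider range than its FSL arrays.

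Dhx36 is covered by 5 probesets, and 1 of them, 1385871_at, was about 2-fold higher in FSL. In P/FC its lowest, median and highest intensities were 188, 265 and 317 in FSL and 94.5, 121 and 150 in FRL in cohort 2. In cohort 1 they were 239, 335 and 421 in FSL and 95.9, 132 and 154 in FRL. In HIP they were 218, 265 and 304 in FSL and 94.1, 107 and 142 in FRL in cohort 2, and 218, 332 and 371 in FSL and 116, 148 and 206 in FRL in cohort 1. The lines stood apart in 4 of 4 combinations of region and cohort, which held for no other of the 16 probesets. The intensity in FSL was 2.30 times that in FRL in P/FC (1.20 ± 0.07) and 2.21 times that in HIP (1.14 ± 0.07, log2 change and SE). The study lists this probeset under a sequence name in place of a gene symbol. Its real-time PCR under nearly the same name gave a rise in FSL in both regions that was much smaller than on the array.

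The other 4 Dhx36 probesets had smaller differences, all of them above 0 over both cohorts. The next in size was 1377906_at, at 0.38 ± 0.07 in P/FC and 0.22 ± 0.05 in HIP. The remaining 3 did not pass an adjusted p of 0.05 in either region, with values between 0.09 and 0.13 in P/FC and between 0.07 and 0.10 in HIP. Among these was 1393432_a_at, whose suffix marks a probeset that binds several transcripts of the gene. It had medians in P/FC of 296 in FSL and 286 in FRL in cohort 2, and of 288 in FSL and 281 in FRL in cohort 1.

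Tsc22d4 had a bright and a dim probeset, and the dim one, 1375958_at, was lower in FSL. Its lowest, median and highest intensities in HIP were 22.4, 34.0 and 42.8 in FSL and 70.8, 103 and 130 in FRL in cohort 2. In cohort 1 they were 19.2, 46.6 and 52.8 in FSL and 43.7, 90.3 and 125 in FRL. In P/FC they were 25.4, 32.7 and 59.1 in FSL and 72.2, 99.2 and 134 in FRL in cohort 2, and 16.3, 30.6 and 52.3 in FSL and 29.5, 67.8 and 101 in FRL in cohort 1. The lines stood apart in both regions in cohort 2 and overlapped in cohort 1. The change was -1.32 ± 0.16 in P/FC and -1.33 ± 0.13 in HIP (SE), and many FSL arrays lay close to the limit of 30. The bright probeset 1371550_at gave -0.15 ± 0.06 in P/FC and -0.10 ± 0.04 in HIP. Its group medians lay between 250 and 270 in FSL and between 282 and 293 in FRL in P/FC.

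Pkp4 differed between the lines in its dimmer probeset, 1379571_at, in level and in spread. In P/FC its lowest, median and highest intensities were 186, 226 and 288 in FSL and 45.5, 149 and 238 in FRL in cohort 2. In cohort 1 they were 160, 185 and 237 in FSL and 33.4, 93.9 and 187 in FRL. In HIP they were 193, 243 and 315 in FSL and 57.5, 141 and 209 in FRL in cohort 2, and 179, 192 and 235 in FSL and 42.3, 91.8 and 199 in FRL in cohort 1. The highest FRL arrays reached the range of the FSL arrays in each combination, and the lowest FRL arrays lay well under it. The change was 0.94 ± 0.18 in P/FC and 1.01 ± 0.17 in HIP. With the log2 3' to 5' ratio of the Gapdh control probesets as a covariate it was 0.51 in P/FC. On the log2 scale that ratio averaged 0.82 in FSL and 0.92 in FRL in P/FC of cohort 2, and 0.74 in FSL and 0.83 in FRL in cohort 1. The brighter Pkp4 probeset, 1372744_at, gave 0.02 ± 0.05 in P/FC and 0.10 ± 0.03 in HIP.

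In Adpgk both probesets were lower in FSL by nearly the same factor. For 1374958_at the lowest, median and highest intensities in HIP were 92.9, 107 and 136 in FSL and 104, 196 and 251 in FRL in cohort 2. In cohort 1 they were 76.1, 112 and 153 in FSL and 160, 206 and 350 in FRL. For 1377952_at they were 58.3, 69.4 and 92.8 in FSL and 93.7, 151 and 169 in FRL in cohort 2, and 55.0, 80.3 and 103.8 in FSL and 104.4, 140 and 204 in FRL in cohort 1. The lines of 1377952_at stood apart in HIP in both cohorts, though by little. The changes in HIP were -0.88 ± 0.10 and -0.88 ± 0.09, and in P/FC they were -0.62 ± 0.12 for 1374958_at and -0.53 ± 0.12 for 1377952_at.

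In Endod1 both probesets were higher in FSL. The brighter, 1372805_at, had lowest, median and highest intensities in P/FC of 297, 323 and 327 in FSL and 181, 230 and 274 in FRL in cohort 2. In cohort 1 they were 290, 314 and 346 in FSL and 188, 220 and 264 in FRL. The lines of this probeset stood apart in 3 of 4 combinations and overlapped in HIP of cohort 1, where FSL ran from 314 to 397 and FRL from 207 to 324. The dimmer, 1383298_at, had medians in P/FC of 36.8 in FSL and 21.5 in FRL in cohort 2, and of 72.2 in FSL and 34.7 in FRL in cohort 1, and overlapped in all combinations. Its change was 0.77 ± 0.14 in P/FC and 0.88 ± 0.14 in HIP, against 0.49 ± 0.05 and 0.59 ± 0.05 for 1372805_at.

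**Figure D2:**
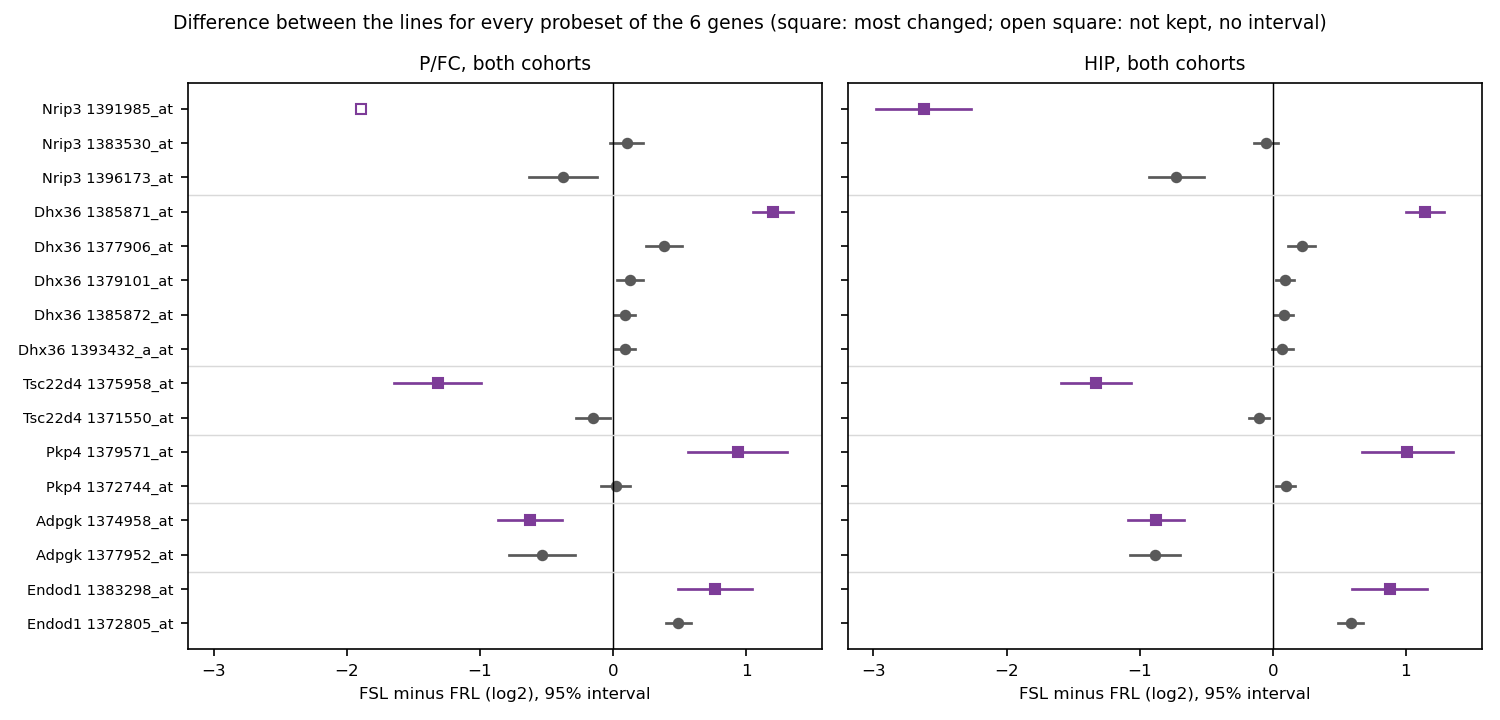
Difference between the lines (FSL minus FRL, log2) for every probeset of the 6 genes in P/FC and HIP over both cohorts, with 95% intervals. Adpgk gives nearly the same value for each probeset in HIP (-0.88), while Nrip3 runs from -2.62 to -0.05 there.

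Under an adjusted p of 0.05 over all kept probesets, 9 of 15 probesets of the 6 genes passed in P/FC (5 higher and 4 lower in FSL) and 10 of 16 in HIP (5 higher and 5 lower), against 18.6% of all kept probesets in P/FC (9.76% higher and 8.86% lower) and 7.33% in HIP (3.2% higher and 4.13% lower). These counts follow from how the genes were chosen. The lines did not overlap for 3 of 15 probesets in P/FC in cohort 2 (0.554% of all kept probesets) and 2 of 15 in cohort 1 (0.277%). In HIP they did not overlap for 5 of 16 in cohort 2 (0.573%) and 4 of 16 in cohort 1 (0.236%). The spread of a gene, taken as its highest minus its lowest change among kept probesets, had a rank of 1 for Nrip3, 2 for Tsc22d4, 3 for Dhx36 and 5 for Pkp4 among 3177 genes with 2 or more kept probesets in HIP. Endod1 had a rank of 185 and Adpgk of 3051. In P/FC, among 3265 genes, Tsc22d4 had a rank of 2, Dhx36 of 3, Pkp4 of 7, Nrip3 of 70 without its most changed probeset, Endod1 of 481 and Adpgk of 2231. The counts of lines that did not overlap and these ranks also follow from the choice of genes, which used the same difference.

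The difference between the lines was next compared between cohorts and between regions, by limma's moderated test on the log2 scale. The choice of genes used this difference, and probesets chosen for a strong change may be favoured to agree between cohorts and regions. A lack of difference here is therefore not independent of the choice. Between cohorts none of 15 probesets passed in P/FC and none of 16 in HIP, as was the case for all probesets (0.0% in each region). At an unadjusted p under 0.05, 0 of the 15 and 3 of the 16 did. Over all kept probesets 1036 of 22370 did in P/FC and 936 of 21630 in HIP. The 3 in HIP were Tsc22d4 1375958_at, whose change was -1.64 in cohort 2 and -1.01 in cohort 1, Dhx36 1385872_at, at -0.02 in cohort 2 and 0.19 in cohort 1, and Pkp4 1372744_at, at 0.19 in cohort 2 and 0.01 in cohort 1. For Nrip3 1391985_at in HIP the change was -2.62 in cohort 2 and -2.63 in cohort 1, a difference of 0.01 with a 95% interval from -0.70 to 0.72.

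Between regions 0 of the 15 probesets kept in both passed, against 0.0668% of all probesets. At an unadjusted p under 0.05 there were 3 of the 15, and 1664 of all 20963 probesets kept in both regions. These were Adpgk 1377952_at, Nrip3 1396173_at and Nrip3 1383530_at. The change of Adpgk 1377952_at in P/FC minus that in HIP was 0.35 (95% interval from 0.04 to 0.67, adjusted p = 0.57). For Dhx36 1385871_at the same difference was 0.06 (-0.14 to 0.27), and for Tsc22d4 1375958_at it was 0.01 (-0.41 to 0.43).

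The choice of genes did not use the level in P/FC against HIP, so this was tested as a second view of the same probesets. Of 15 probesets, 11 passed (3 higher and 8 lower in P/FC), against 69.6% of all probesets (48.5% higher and 21.1% lower). Nrip3 had the largest of these differences. Its probeset 1383530_at was lower in P/FC, with a log2 difference of -1.37 ± 0.04 (adjusted p = 1.6e-45, limma), with group means of 517 to 637 in P/FC and 1195 to 1700 in HIP. Its probeset 1396173_at differed by -1.07 ± 0.08 (adjusted p = 7.4e-20). The Nrip3 probeset with little difference between the lines and another that was lower in FSL thus both read lower in P/FC. Within cohorts these values were -1.25 in cohort 2 and -1.50 in cohort 1 for 1383530_at, and -1.12 in cohort 2 and -1.02 in cohort 1 for 1396173_at.

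Over both lines the Adpgk probesets were lower in P/FC, at -0.41 ± 0.08 for 1374958_at (adjusted p = 5.0e-06) and -0.27 ± 0.08 for 1377952_at (adjusted p = 0.0019). In FSL rats alone 1377952_at gave -0.09 and did not pass (adjusted p = 0.52), against -0.44 in FRL rats (adjusted p = 1.6e-04). Within cohort 2 alone the change of 1377952_at was -0.20 and did not pass (adjusted p = 0.12). In Endod1 the dim probeset was lower in P/FC, at -0.46 ± 0.10 (adjusted p = 3.1e-05), and the bright one had a difference of -0.03 ± 0.03 (adjusted p = 0.43). In Pkp4 the bright probeset was lower in P/FC, at -0.28 ± 0.03 (adjusted p = 2.1e-12), and the one that differed between the lines gave -0.04 ± 0.13 (adjusted p = 0.79, 95% interval from -0.29 to 0.21). The 5 Dhx36 probesets lay between -0.12 and 0.11, of which 4 passed, and 1385871_at gave 0.01 ± 0.05 (adjusted p = 0.91). Under quantile normalisation the signs of Dhx36 1379101_at, Dhx36 1385872_at and Tsc22d4 1371550_at turned, and Endod1 1372805_at passed at -0.12 (adjusted p = 0.0011). Tsc22d4 1375958_at was lower in P/FC, at -0.23 ± 0.11 (adjusted p = 0.043), and within cohorts it gave 0.04 in cohort 2, which did not pass, and -0.51 in cohort 1, which did. Within cohorts 5 of 15 probesets passed in cohort 2, against 58.9% of all, and 12 of 15 in cohort 1, against 62.0% of all.

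**Figure D3:**
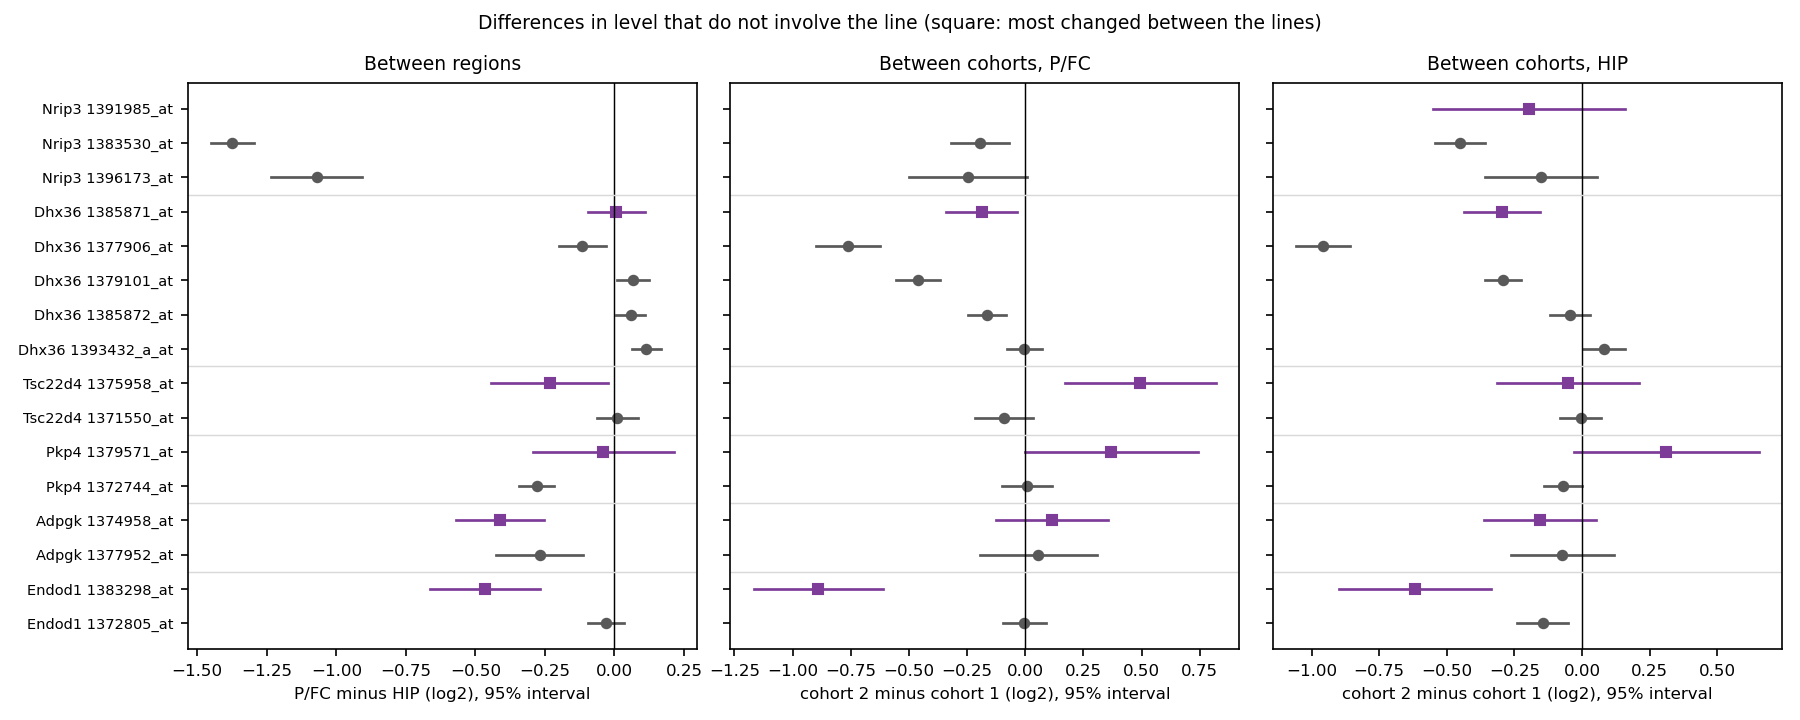
Differences in log2 level between regions (P/FC minus HIP) and between cohorts (cohort 2 minus cohort 1) in each region, with 95% intervals, for the probesets kept there. Nrip3 lies at -1.37 and -1.07 between regions, and in Dhx36 the probeset 1377906_at lies farthest from 0 between cohorts, at -0.76 in P/FC and -0.96 in HIP.

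The levels in cohort 2 against cohort 1 were compared as well, a contrast that the choice of genes did not use either. In P/FC 6 of 15 probesets passed (1 higher and 5 lower in cohort 2), against 27.8% of all probesets (14.6% higher and 13.2% lower). In HIP 6 of 16 passed (0 higher and 6 lower), against 39.3% (17.1% higher and 22.2% lower). In Dhx36 the probeset that moved most was not the one that differed between the lines. The probeset 1377906_at was lower in cohort 2, at -0.76 ± 0.07 in P/FC (adjusted p = 4.9e-11) and -0.96 ± 0.05 in HIP (adjusted p = 5.1e-18). Its median in HIP was 123 in cohort 2 and 240 in cohort 1 in FSL rats, and 108 in cohort 2 and 206 in cohort 1 in FRL rats. For 1385871_at the differences were -0.19 ± 0.07 in P/FC (adjusted p = 0.058) and -0.30 ± 0.07 in HIP (adjusted p = 8.6e-04), the second of which was -0.16 and did not pass with the log2 3' to 5' ratio of the Actb control probesets as a covariate (adjusted p = 0.21). For 1393432_a_at they were -0.00 ± 0.04 and 0.08 ± 0.04, and neither passed.

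In Endod1 the dim probeset 1383298_at was lower in cohort 2, at -0.89 ± 0.14 in P/FC (adjusted p = 4.8e-06) and -0.62 ± 0.14 in HIP (adjusted p = 5.8e-04). With the same covariate the value in HIP was -0.31 and did not pass (adjusted p = 0.20). In P/FC 1383298_at exceeded 30 in 1 of 10 FRL arrays of cohort 2 and in 11 of 12 of cohort 1. It was thus kept there through cohort 1, and its cohort difference in P/FC rests partly on intensities under the filter. The bright probeset 1372805_at gave -0.00 ± 0.05 in P/FC and -0.15 ± 0.05 in HIP (adjusted p = 0.012). Endod1, whose probesets were both higher in FSL, thus had cohort differences of unlike size in its probesets. Neither Adpgk probeset passed in either region, with values between -0.16 and 0.12. Nrip3 1383530_at was lower in cohort 2 in both regions, at -0.19 ± 0.06 in P/FC and -0.45 ± 0.05 in HIP, and Tsc22d4 1375958_at was higher in P/FC by 0.50 ± 0.16 (adjusted p = 0.019).

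To compare probesets within the same array, the log2 ratio of the most changed probeset of a gene over each of its other kept probesets was taken, which gave 10 pairs. Ratios of other genes were not tested, so the counts of passes have no share over the array beside them. Between regions, within each line, 1 of 20 permutation tests passed after adjustment. It was Nrip3 1391985_at over 1396173_at in FRL rats, at -0.33 ± 0.43 in P/FC and 0.14 ± 0.28 in HIP (SD, n = 22 each), a difference of -0.47 (adjusted p = 0.001, two-sided permutation test). Within cohorts the difference was -0.39 in cohort 2, which did not pass (adjusted p = 0.060, permutation test), and -0.52 in cohort 1, which did (adjusted p = 0.022). The other pairs did not pass over both cohorts, with values between -0.42 and 0.33. Within cohorts, 3 Dhx36 ratios, those of 1385871_at over 1379101_at, 1385872_at and 1393432_a_at, were lower in P/FC in FRL rats of cohort 1, at -0.32, -0.33 and -0.35 (adjusted p = 0.015 each, permutation test). In FRL rats of cohort 2 the same ratios gave 0.17, 0.17 and 0.09, of the opposite sign, and did not pass. The Pkp4 ratio was higher in P/FC in FSL rats of cohort 1, at 0.25 (adjusted p = 0.046, exact permutation test), and gave 0.23 in cohort 2, which did not pass (adjusted p = 0.15). In the FSL rats of P/FC the ratios of Nrip3 1391985_at rest on intensities mostly under 30.

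Between cohorts, within each line and region, 12 of 40 exact permutation tests passed after adjustment. By the spread of its cohort difference, Dhx36 had a rank of 66 among 3265 genes in P/FC and of 25 among 3177 in HIP. Endod1 had ranks of 44 in P/FC and 383 in HIP, Tsc22d4 of 180 and 2780, and Pkp4 of 674 and 590. Nrip3 had ranks of 2787 (without its most changed probeset) and 929, and Adpgk of 2736 and 2476. Dhx36 1385871_at over 1377906_at was higher in cohort 2 in all 4 combinations. The ratio was 1.10 ± 0.15 in cohort 2 (n = 8) and 0.34 ± 0.23 in cohort 1 (n = 9) in FSL rats in HIP (SD, adjusted p = 4.8e-04, exact permutation test). Over all 4 combinations its difference ranged from 0.47 to 0.77. The ratio of Endod1 1383298_at over 1372805_at was lower in cohort 2 in 3 of 4 combinations, with differences of -0.93 in FSL rats and -0.84 in FRL rats in P/FC and of -0.62 in FRL rats in HIP. In the FRL rats of cohort 2 in P/FC this ratio rests on intensities of 1383298_at mostly under 30. With 16 added before the logarithm the difference in FRL rats in P/FC was -0.55. Other passes were Tsc22d4 in FRL rats of P/FC (0.79), Pkp4 in FSL rats of HIP (0.27) and 3 further ratios of Dhx36 1385871_at in FRL rats. The differences of these Dhx36 ratios were 0.39 over 1379101_at in P/FC, and -0.49 over 1385872_at and -0.53 over 1393432_a_at in HIP. Those in HIP were thus lower in cohort 2, the opposite direction to the ratio over 1377906_at. No ratio of Adpgk or Nrip3 passed between cohorts.

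**Figure D4:**
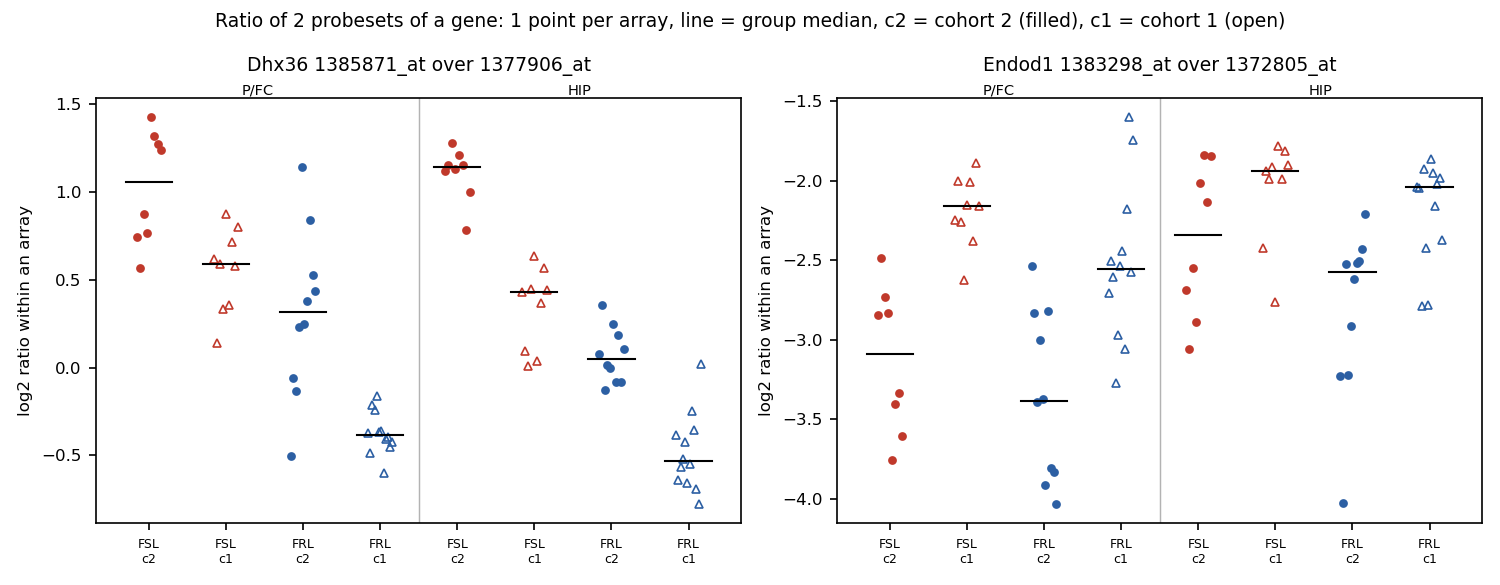
Log2 ratio of 2 probesets of Dhx36 and of Endod1 within an array, 1 point per array, with a line at the median of each group. The Dhx36 ratio averages 1.10 in cohort 2 and 0.34 in cohort 1 in FSL rats in HIP, and the Endod1 ratio averages -3.13 in cohort 2 and -2.19 in cohort 1 in FSL rats in P/FC.

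Arrays of the same line, region and cohort also differ among themselves, and the probesets of a gene can be followed over these arrays. Such correlations are descriptions. They were taken for each line and region over the arrays of both cohorts (17 in FSL and 22 in FRL), after the mean of each cohort was taken out. The 2 Nrip3 probesets that were lower in FSL went together in all 4 combinations of line and region, with a Pearson correlation of 0.59 to 0.91 and a median of 0.71. The bright Nrip3 probeset had medians of -0.01 with 1391985_at and 0.09 with 1396173_at, and its highest value was 0.38. The 2 Adpgk probesets also went together, at 0.56 to 0.84. Over 5662 pairs of probesets of 1 gene on the array the median was 0.19. Pkp4 had a median of 0.31, Endod1 of 0.28 and Tsc22d4 of -0.18, and the 5 Dhx36 probesets gave medians between -0.06 and 0.57. The lowest of these was that of 1377906_at with 1385872_at. The Dhx36 probeset 1385871_at had medians of 0.34 to 0.53 with the other probesets of the gene.

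**Figure D5:**
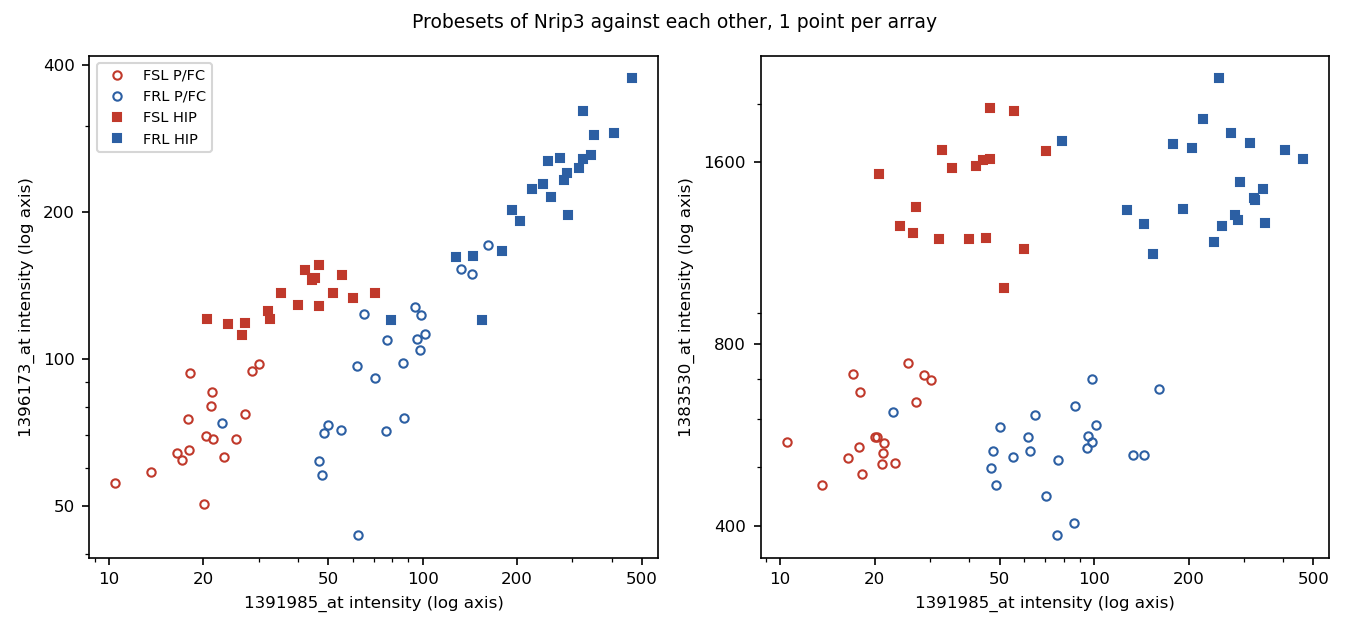
Intensity (log axes) of the Nrip3 probeset 1391985_at against 1396173_at and against 1383530_at, 1 point per array, by line and region. Within a line and region 1396173_at goes up with 1391985_at, while 1383530_at separates the regions and not the lines.

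Over all 78 arrays, after the mean of each line, region and cohort was taken out, the probeset most like Nrip3 1391985_at among 20823 with a gene symbol was Nrip3 1396173_at (Pearson's r = 0.75). The one most like Adpgk 1374958_at was Adpgk 1377952_at (r = 0.75). For Dhx36 1385871_at 96 of the 20823 probesets were more alike than the nearest probeset of its own gene (1379101_at, r = 0.49). For Pkp4 1379571_at this number was 505, for Endod1 1383298_at 3148 and for Tsc22d4 1375958_at 17853. The probesets of other named genes most like these were those of Tpi1 for Nrip3 (r = 0.60), Araf for Dhx36 (0.65), Kti12 for Tsc22d4 (0.55), Plekha3 for Pkp4 (0.55), Ifgga2l1 for Adpgk (0.53) and Mat2a for Endod1 (0.57). Of these, the probeset of Ifgga2l1 was not kept in both regions. Arrays share processing batches that the labels do not give, which enter such correlations. They also vary in markers of the choroid plexus and meninges, whose part in these correlations was not tested.

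Relatives of the 6 genes by family or pathway were counted as well (45 genes, among them the DEAH-box helicases, the TSC22 family, plakophilins and delta catenins, and the enzymes of glycolysis). In P/FC 9 of their 48 kept probesets passed (6 higher and 3 lower in FSL), or 18.8%, close to the 18.6% of all probesets. In HIP 5 of 47 passed (1 higher and 4 lower), or 10.6% against 7.33%. Those named here are the relatives of lowest adjusted p. Ctnnd2, the neuronal delta catenin related to Pkp4, was lower in FSL, at a log2 change of -0.18 ± 0.03 in P/FC (907 ± 47.8 in FSL and 1028 ± 64.7 in FRL, SD, n = 17 and 22; adjusted p = 8.2e-05, limma) and -0.11 ± 0.03 in HIP (adjusted p = 0.0052). Dhx37, a helicase of ribosome assembly, was lower, at -0.29 ± 0.06 in P/FC (adjusted p = 0.0014) and -0.25 ± 0.05 in HIP (adjusted p = 0.0019), the opposite direction to Dhx36 1385871_at. Tsc22d2 was higher by 0.20 ± 0.05 in HIP (adjusted p = 0.0031) and Nrip2 by 0.25 ± 0.06 in P/FC (adjusted p = 0.0062). Of the glycolytic enzymes, Aldoc, the aldolase of astrocytes, was lower, at -0.16 ± 0.04 in P/FC (adjusted p = 0.0091) and Tpi1, triosephosphate isomerase, was lower at -0.15 ± 0.03 in HIP (adjusted p = 0.0021). With the Gapdh ratio as a covariate 1 of 48 relatives passed in P/FC, and with the Actb ratio 2 of 47 in HIP. The shares of all probesets with these covariates are not given.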

How the data were processed

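Affymetrix whole-genome rat arrays were hybridised with RNA of P/FC and HIP of FSL and FRL rats. Normalisation was done by the authors with Rosetta Resolver, and the deposited table gives for each array a linear intensity per probeset, from which background had been subtracted. Lines, cohorts and regions were taken from the labels, all 78 arrays were used and 0 columns were unmatched. The labelling batch is not in the labels and not in the models.

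Log2 values were taken with a floor of 1, leaving out 57 control probesets. A probeset stayed in a region if FSL and FRL arrays each exceeded 30 in 50% of cases or more (22370 in P/FC, 21630 in HIP, 20963 in both). limma 3.58.1 (R 4.3.3) was run for each region and for both together, with a mean per line, region and cohort, and p-values were adjusted by Benjamini and Hochberg over all kept probesets. Errors of changes are SE. Ratios of probesets were tested two-sided, by exact permutation between cohorts and by 100000 resamples between regions (exact within cohorts where a group was under 10), with p-values adjusted over the tests. The scripts were tested on simulated data.

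The named genes were all probesets of the 6 genes, for each region the relatives of lowest adjusted p (at most 4), and the probesets most correlated with the most changed probeset of each gene, of which the first is printed. The most changed probeset has the largest absolute line change averaged over the regions. The genes and lists were chosen with earlier results of these data known. Probeset symbols are those of the platform annotation (20826 probesets with 1 symbol, 436 with several, 9780 with none). Probe sequences were not used here. The number of arrays limits the precision. The alternatives were no filter, a filter of 100, quantile normalisation, 16 added before the logarithm, the sample number as a block, a covariate for RNA quality (the 3' to 5' ratio of Gapdh or Actb), cohorts fitted separately and, for ratios, medians.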

Additional observations from a re-analysis of the deposited data

Results flagged for a closer look

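In 3 of 96 groups of 8 to 10 arrays of a probeset of the 6 genes, 1 array stood apart from the rest, where chance alone gives about 1 in 20 (4.8 groups). Tsc22d4 1375958_at read 59.1 in FSL replicate 1 of cohort 2 in P/FC, and the next highest of the 8 arrays read 38.8. Dhx36 1385871_at read 142 in FRL replicate 6 of cohort 2 in HIP, and the next highest of the 10 read 119. Dhx36 1377906_at read 73.4 in FRL replicate 2 of cohort 2 in HIP, and the next lowest of the 10 read 95.7. In the first 2 the lines did not overlap in that cohort and region with the array included.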

How the results depend on the processing

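The line changes of the 6 genes moved by less than the SD of single arrays within groups under every alternative run (208 values). That limit is loose, as it is wider than the SE of a change. Pkp4 1379571_at in P/FC stayed within it while going from 0.94 ± 0.18 (SE) to 0.51 with the Gapdh ratio. Counts that moved by over 1.5 times were these. With a filter of 100, fewer probesets were tested, and 5 of 10 passed between the lines in P/FC and 6 of 10 between the regions. With the Actb ratio as a covariate 3 probesets passed between cohorts in P/FC and 3 in HIP, and 2 relatives passed in HIP, while with the Gapdh ratio 1 relative passed in P/FC. Cohort 1 fitted on its own, with fewer arrays, gave 2 relatives in P/FC, against 5, and 0 in HIP (limma, 9 at an unadjusted p under 0.05), against 2. With 16 added, 3 ratios passed between regions, and 2 under quantile normalisation, where Pkp4 in FSL rats joined Nrip3. The cause was not tested except where stated. Between regions, quantile normalisation turned Tsc22d4 1371550_at to -0.0822 (adjusted p = 0.042), Dhx36 1379101_at to -0.0276 and Dhx36 1385872_at to -0.0237, and it moved the median of all probesets to -0.01, against 0.08. In P/FC the Gapdh ratio brought the line change of Dhx36 1377906_at to 0.22 and of Nrip3 1396173_at to -0.58, and in HIP the Actb ratio brought Dhx36 1377906_at to 0.09. Same-numbered arrays of the lines were weakly alike (median correlation 0.15 in P/FC and 0.09 in HIP, over 0.1 in 10 and 8 of 17 pairs). Arrays of other numbers had medians of -0.02 in P/FC and -0.01 in HIP. In 5 of 17 pairs in P/FC and 4 of 17 in HIP the own number was the most alike. Same-numbered arrays of the regions had medians of 0.01 in FSL and 0.03 in FRL. The cause of this likeness was not tested. The sample number as a replicate block gave 10 probesets in P/FC and 11 in HIP between the lines, 11 between regions, 6 and 6 between cohorts, 0 for the differences of the line change, and 11 and 6 relatives. The shares of all kept probesets under these alternatives are not given. Whether the counts moved with the whole array can thus not be told. The dim probesets, Nrip3 1391985_at, Tsc22d4 1375958_at and Endod1 1383298_at, lay near 30 in the lower line, where a log2 change is least certain.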
